A study of Homo sapiens with 66 samples.

Results

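Long introns without an editing cluster were examined in human THP-1 cells in which hnRNPC, ADAR or both had been targeted by CRISPR/Cas9. From 197626 introns with read counts, 2489 were taken because they were wider than 50000 bp, held a summed count of at least 1000 over 48 libraries and overlapped no editing-cluster region (ECR). An ECR is a cluster of candidate A-to-I editing sites extended by 1000 bp on each side, with overlapping clusters merged. Of 4143 introns above this width, 2540 reached the summed count and 51 of those overlapped an ECR and were left out. The selection used width, position and total count, and no difference between groups. At the edges of the rule, the narrowest intron taken spanned 50009 bp and the next narrower one 49921 bp, while the lowest summed count was 1000 and the next lower one 997.

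THP-1 is a monocytic cell line from an acute monocytic leukemia. All libraries came from a single Cas9-transgenic clone that lacks STING, the adaptor through which cytosolic DNA triggers type I IFN, so every group shared this deficiency and clone-to-clone variation was not sampled. Cells were nucleofected with pairs of gRNAs and total RNA, depleted of ribosomal RNA, was sequenced on day 3, 4 or 5. The groups are called CTRL (nontargeting gRNAs, CTRL_CTRL in the labels), hnRNPC-targeted (hnRNPC_CTRL), ADAR-targeted (CTRL_ADAR), ADAR+hnRNPC-targeted (hnRNPC_ADAR) and GFP-targeted (GFP_CTRL), each with 3 replicates per day. A further group of 3 CTRL libraries on day 4 had received IFN-α for 24 h, which makes 16 groups in all. The GFP gRNA cuts a sequence that is no human gene, and these libraries therefore served as a second control. The cells of a targeted group were a bulk population and not a knockout clone.

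An intron is transcribed with its gene, cut out of the nascent RNA during splicing and degraded soon after. In long introns the splice sites lie far apart, and sequences that resemble splice sites, many of them in Alu elements, lie in between. hnRNPC is a nuclear RNA-binding protein that binds runs of uridines. It is known to keep the splicing factor U2AF65 away from the uridine runs of antisense Alu elements, which could otherwise be used as exons. ADAR converts adenosines in double-stranded RNA to inosines, which are read as G in sequencing. Total RNA holds intronic reads from nascent transcripts, from retained introns and from exons that the annotation does not list in the transcript used, and these sources were not separated here.

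Some sequences illustrate what the introns look like. The polypyrimidine tract at the 3′ end of an intron is the place where U2AF65 binds. The 3′ ends are shown for introns that are described further on, as the last 27 intron bases and the first 3 exon bases on the transcribed strand of GRCh37, with the AG of the acceptor in capitals. The first 3 introns were higher in hnRNPC-targeted cells and the last 3 were lower.

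GPC5, chr13:92345414-92345443, plus strand: catgttttacctctgcttgtgttacAGaaa
NAV1, chr1:201749522-201749551, plus strand: ttgaccttcatctctcctgtcctgtAGctg
ITFG1, chr16:47409849-47409878, minus strand: ttacgtttttattatttttccttctAGatt
KAZN, chr1:15287153-15287182, plus strand: ctctaaccctgtgcccttctcccctAGtgc
UNC5C, chr4:96256780-96256809, minus strand: atcttccactttcttcttctttctcAGatg
PLXNA4, chr7:131982979-131983008, minus strand: ctttggctctcctcttcttctccacAGatc

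Pyrimidines made up 18, 20 and 21 of the 25 bases before the AG in GPC5, NAV1 and ITFG1. The same count was 21 in KAZN, 23 in UNC5C and 22 in PLXNA4. In the FHIT intron at chr3:59999879-60522592, which was also lower, it was 14, below all 3 higher introns. The counts thus did not separate the 2 directions. Runs of T inside the intron, which are runs of U in the RNA, are the other feature that bears on hnRNPC. The longest run is shown in capitals for 3 introns.

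NAV1, chr1:201734506-201734535, plus strand: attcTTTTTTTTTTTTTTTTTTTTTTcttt
ITFG1, chr16:47410875-47410904, minus strand: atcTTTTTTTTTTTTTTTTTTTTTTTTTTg
UNC5C, chr4:96446744-96446773, minus strand: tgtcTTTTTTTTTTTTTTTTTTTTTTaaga

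These runs had 22 T in NAV1, 26 T in ITFG1 and 22 T in UNC5C. A run of this length was thus present in introns that changed in opposite directions.

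The 2489 introns had a median width of 80318 bp, against 1505 bp over all introns. Of these, 850 exceeded 100 kb, 218 exceeded 200 kb and 23 exceeded 500 kb, and the widest reached 1551.72 kb. A single host gene was assigned to 2243 of them, 2 hosts to 12 and none to 234, where a host had to span the intron and have an exon that abuts it. The hosts comprised 1524 genes, of which 1105 contributed 1 intron. DPYD, which encodes the enzyme that degrades pyrimidines, contributed 8. First introns were common, with 696 of 1876 introns whose rank could be given, or 37.1%, against 9.55% over all introns. The GC content had a median of 39.7%, against 43.6%. Runs of at least 9 T occurred at a median of 2.74 per 10 kb and runs of A at 1.86. A GT-AG pair stood at the ends of 1879 of 1966 introns bounded by exons of 1 host, or 95.6%, against 97.7% over all introns, and 9 had GC-AG ends.

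Many of the intervals were not free of other exons. Exons of the host that belong to other transcripts lay inside 1444 of the introns, exons of another gene inside 1611 and a protein-coding gene inside 278, while 353 contained no annotated exon. It is not stated whether the strand of a read was used in counting, so reads of the host intron, of an unlisted host exon and of a nested or antisense gene could not be told apart. Genes inside are given for some of the named introns only. Where none is given, the interval may still hold exons of other genes.

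Gene counts summed to 9.51e+07 to 1.53e+08 per library and intron counts to 2.09e+07 to 3.57e+07, of which the long introns took 1.03e+06 to 2.77e+06. HNRNPC mRNA in hnRNPC-targeted cells differed from CTRL by -1.09, -1.18 and -1.39 on the log2 scale on days 3, 4 and 5, with a mean of 317 counts per 1000000 scaled gene counts (CPM) against 832 CPM on day 5. ADAR mRNA had means of 370, 368 and 386 CPM in ADAR-targeted cells and of 424, 404 and 394 CPM in CTRL, which was not called, and a gRNA may disrupt a protein without lowering its mRNA. In ADAR+hnRNPC-targeted cells the means of ADAR mRNA were 355, 455 and 1322 CPM on days 3, 4 and 5, and with IFN-α the mean was 1236 CPM. The myeloid genes CD33, CSF1R and SPI1 were present in every library, whereas the T cell, erythroid, epithelial and fibroblast markers examined reached at most 0.311 CPM, in COL1A1. Of the B cell markers, PAX5 was detected in all libraries and MS4A1 was at or below 0.0396 CPM. The study's text describes the RNA-seq data as coming from independent experiments, while the labels give replicate numbers without saying which libraries belong to the same experiment. In bulk RNA, fewer cells of a kind and less RNA per cell cannot be told apart.

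The long introns as a whole took a similar number of reads in most groups, with 1 library standing apart. Summed over all 2489, these introns took 9381 to 21619 CPM, with a median of 12610 over the libraries. CTRL on day 5 gave 21619, 12676 and 11556, so that replicate 1 lay far above replicates 2 and 3. The highest value of any other library was 16864. hnRNPC-targeted cells averaged 13447 ± 2026, 12484 ± 1012 and 13127 ± 727 (SD, n = 3) on days 3, 4 and 5, against 12495 ± 1090, 12211 ± 2578 and 15283 ± 5515 in CTRL. These differences were within the spread of the replicates. ADAR+hnRNPC-targeted cells averaged 15360 ± 1949 and GFP-targeted cells 13432 ± 739 on day 5. Because replicate 1 of CTRL on day 5 enters every comparison with CTRL on that day, the main counts of long introns on that day are given with and without it.

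**Figure D1:**
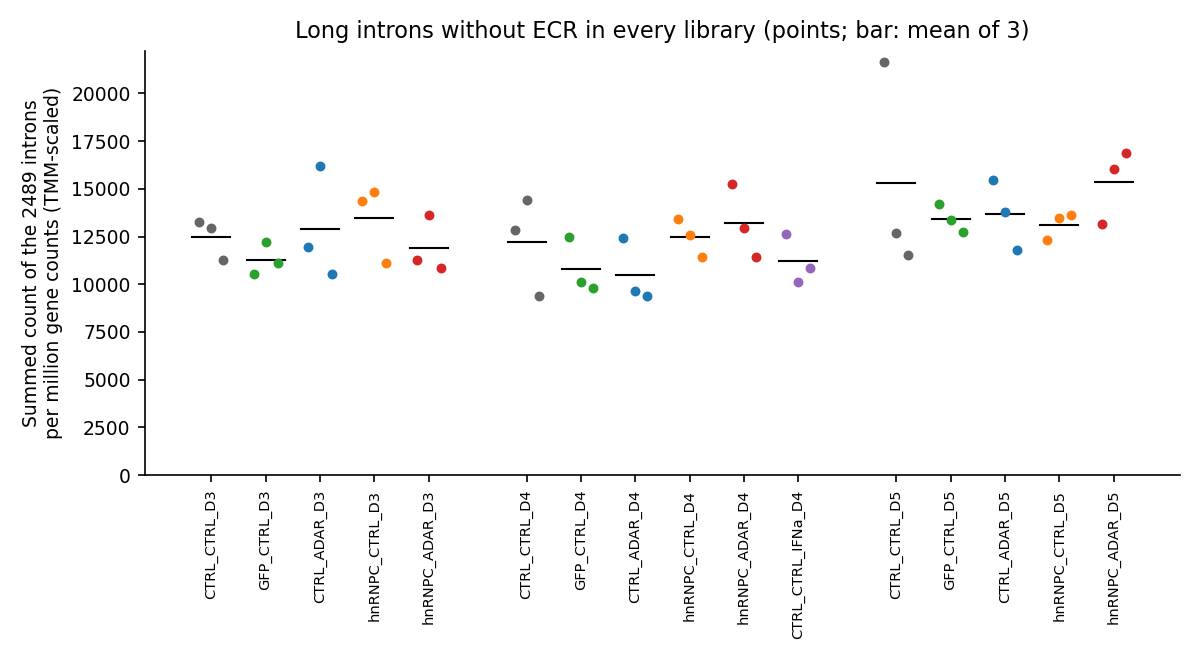
CPM, counts per 1000000 scaled gene counts, summed over the 2489 long introns without ECR (vertical axis, linear from 0), 1 point per library with a line at the mean of 3, by group and day along the horizontal axis. The highest point, 21619, is replicate 1 of CTRL on day 5, and the other 47 libraries lie at or below 16864.

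For each intron, groups were then compared with edgeR's quasi-likelihood test. A total of 1312 long introns passed the filter of a mean log2 CPM of at least 1 over all libraries, of 21798 introns tested. An intron was called higher or lower at a log2 difference of at least 1 in size and a Benjamini-Hochberg adjusted p of at most 0.05 over all introns tested. Counts from fits that leave out 1 library are given without the share of all introns called in the same fit. Such counts describe how the number of long introns called moved and are not set against all introns. The filter uses the mean of all 48 libraries, so an intron that is high in 1 group passes more easily, and the remaining introns were tested only where the low-count filter was relaxed.

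In hnRNPC-targeted cells, rises came first and falls followed on day 5. At day 3, 10 long introns were higher and 0 lower, where 2.49% of all tested introns were higher and 0.138% lower. At an unadjusted p under 0.05 edgeR gave 158 long introns with a positive and 35 with a negative difference on day 3, while neither limma-voom nor DESeq2 called any lower. On day 4, 27 were higher and 4 lower, with 3.57% and 0.505% of all introns. On day 5, 31 were higher and 67 lower, with 4.00% and 2.35%. The 4 introns that were lower on day 4 belonged to KAZN, PLXNA4, MEGF6 and an interval with no host, and the last 2 were named after their values were seen. The median log2 difference of the long introns was 0.10, 0.04 and -0.13 on the 3 days, against 0.13, 0.08 and -0.06 over all tested introns. A total of 8 introns were higher on all 3 days and 40 on any day, and 68 were lower on any day.

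The number of falls on day 5 moved with a single control library. Without replicate 1 of CTRL on day 5, 62 long introns were higher and 22 lower, and the median log2 difference was 0.19, against 0.04 over all tested introns. Without replicate 3, 27 were higher and 125 lower, and without replicate 2, 24 were higher and 104 lower. The shares of all tested introns called in these fits are not given. With GFP-targeted cells as the control, 37 were higher and 28 lower on day 5, with 3.60% and 1.64% of all introns. This control gave 49 and 4 on day 4, with 4.26% and 0.404%, and 19 and 0 on day 3, with 3.06% and 0.0780%. Library sizes from intron totals in place of gene totals shifted the median of all introns from -0.06 to -0.00. With these, 38 were higher and 48 lower on day 5, with 4.58% and 1.89% of all introns. On day 3, 16 introns were called without replicate 1 of CTRL and 19 without replicate 3 of the hnRNPC-targeted group. Where all 2489 were tested, at a summed count of at least 1000, 40 were higher and 2 lower at day 3, then 88 and 26 at day 4 and 158 and 152 at day 5. In the same fit 1.44%, 2.48% and 4.52% of 99827 introns were higher and 0.208%, 0.873% and 2.61% lower on these days.

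The rises on day 5 were led by an interval at MMP2 and by introns of GPC5, NAV1, ITFG1 and SEM1. Intron 2 of GPC5, which encodes a cell surface heparan sulfate proteoglycan, spans 244.264 kb (chr13:92101177-92345440). Its level in CTRL on day 5 was 4.70, 2.22 and 2.29 CPM and in hnRNPC-targeted cells 16.3, 16.5 and 13.5 CPM. The groups did not overlap, although replicate 1 of CTRL was above the other two. The log2 difference rose from 1.12 on day 3 to 2.05 on day 4 and 2.33 ± 0.26 (SE) on day 5 (edgeR, adjusted p = 4.74e-09). ADAR+hnRNPC-targeted cells had 10.8, 13.1 and 13.4 CPM on day 5, below the hnRNPC-targeted libraries and above all CTRL libraries.

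Intron 7 of NAV1, a microtubule-associated protein first described in neurons, spans 61.665 kb (chr1:201687884-201749548). CTRL had 0.835, 1.38 and 0.986 CPM on day 3 and 1.45, 0.914 and 1.16 CPM on day 5. hnRNPC-targeted cells had 3.82, 4.03 and 3.02 CPM on day 3 and 5.61, 6.07 and 6.03 CPM on day 5. No replicate of the targeted group came near a control on either day, and the log2 difference was 1.76, 1.93 and 2.33 ± 0.26 on days 3, 4 and 5 (edgeR, adjusted p on day 5 = 4.87e-09). ADAR+hnRNPC-targeted cells had 5.15, 5.54 and 6.47 CPM on day 5, which overlapped the hnRNPC-targeted libraries. Exons of NAV1 itself and of IPO9-AS1, an antisense RNA, lie inside this intron.

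Intron 6 of ITFG1 spans 52.863 kb (chr16:47409852-47462714) and contains no other gene. It had 3.96, 3.57 and 3.04 CPM in CTRL on day 5 and 10.6, 11.1 and 9.66 CPM in hnRNPC-targeted cells, with no overlap. Its log2 difference was 1.28, 1.79 and 1.57 ± 0.16 on the 3 days (edgeR, adjusted p on day 5 = 1.09e-09). An intron of SEM1, which encodes a small subunit of the 26S proteasome, behaved in the same manner (chr7:96132836-96279526). It had 1.59, 1.46 and 1.05 CPM in CTRL on day 5 and 4.05, 3.89 and 4.09 CPM in hnRNPC-targeted cells, and its log2 difference was 1.22, 1.73 and 1.56 ± 0.22.

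The largest rise on day 5 was in an interval of 89.271 kb with no host gene (chr16:55423612-55512882), which overlaps MMP2, the gene of a secreted gelatinase. CTRL had 0.391, 0.404 and 0.905 CPM, hnRNPC-targeted cells 4.45, 4.20 and 7.04 CPM and ADAR+hnRNPC-targeted cells 11.1, 12.0 and 17.9 CPM. The 3 groups were separate, and the log2 difference to CTRL was 3.20 ± 0.34 with the hnRNPC gRNA alone and 4.58 ± 0.36 with both gRNAs (edgeR, adjusted p = 1.56e-09 and 2.21e-13). Since exons of MMP2 lie in the interval, these counts can be mRNA.

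The other 3 of the 8 leading rises were smaller on day 3. The intron of DLG5, a scaffold protein at cell junctions, differed by 0.30, 0.99 and 1.51 ± 0.19 on the 3 days. That of TEX9, which contains exons of the transcription factor gene RFX7, differed by 0.79, 1.04 and 1.35 ± 0.20. An interval with no host that overlaps POLR2F, a subunit shared by the nuclear RNA polymerases (chr22:38383430-38437922), differed by 0.64, 0.89 and 1.33 ± 0.21. All 3 were called on day 5, and TEX9 on day 4 as well. Besides these, introns of NEDD4, a ubiquitin ligase, of RGS17, a regulator of G protein signalling, and 2 intervals without a host were higher on all 3 days, and these were named after their values were seen.

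The falls on day 5 were led by introns of KAZN, FHIT, UNC5C and KCNQ5. Intron 1 of KAZN, a protein linked to desmosomes, spans 361.46 kb (chr1:14925720-15287179). It had 4.18, 3.96 and 3.99 CPM in CTRL on day 5 and 1.14, 1.25 and 0.855 CPM in hnRNPC-targeted cells. The 2 groups were far apart with a tight control, and the log2 difference went from -0.22 on day 3 to -1.10 on day 4 and -1.90 ± 0.21 on day 5 (edgeR, adjusted p on day 5 = 3.27e-09). It was -1.88 without replicate 1 of CTRL and -1.70 against GFP-targeted cells.

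Intron 3 of PLXNA4, a plexin that forms part of a semaphorin receptor, spans 191.069 kb (chr7:131982982-132174050). Its level was 17.7, 20.1 and 17.1 CPM in CTRL on day 5, 19.4, 19.8 and 15.5 CPM in GFP-targeted cells, and 3.88, 5.77 and 6.18 CPM in hnRNPC-targeted cells. The targeted libraries lay below all controls of both kinds. The log2 difference was -0.50, -1.14 and -1.79 ± 0.17 on the 3 days (edgeR, adjusted p on day 5 = 9.19e-11). Likewise, the intron of NREP, a regulator of neuronal differentiation, fell from 23.96, 21.8 and 22.4 CPM in CTRL to 6.23, 7.52 and 7.16 CPM on day 5, by 1.70 ± 0.12 on the log2 scale. Leaving out replicate 1 of CTRL changed the differences of PLXNA4 and NREP to -1.82 and -1.66.

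Other leading falls were smaller once the high control library was left out. Intron 1 of UNC5C, a netrin receptor, spans 213.102 kb with no annotated exon inside (chr4:96256783-96469884). It had 23.1, 9.65 and 9.51 CPM in CTRL on day 5 and 3.06, 3.58 and 5.09 CPM in hnRNPC-targeted cells. The difference of -1.85 ± 0.26 became -1.29 without replicate 1. For intron 5 of FHIT, a tumor suppressor gene at a fragile site, CTRL gave 15.2, 5.56 and 4.85 CPM and hnRNPC-targeted cells 2.24, 2.81 and 1.91 CPM, and -1.87 ± 0.33 became -1.16. The corresponding values were -1.81 and -1.20 for the potassium channel gene KCNQ5, -1.75 and -1.25 for intron 5 of MACROD2, which encodes a hydrolase of ADP-ribose, and -1.70 and -1.12 for the adhesion molecule gene CNTN4. In each of these 5 introns replicate 1 of CTRL held over 2 times the CPM of replicates 2 and 3, and the targeted group still lay below all CTRL libraries.

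**Figure D2:**
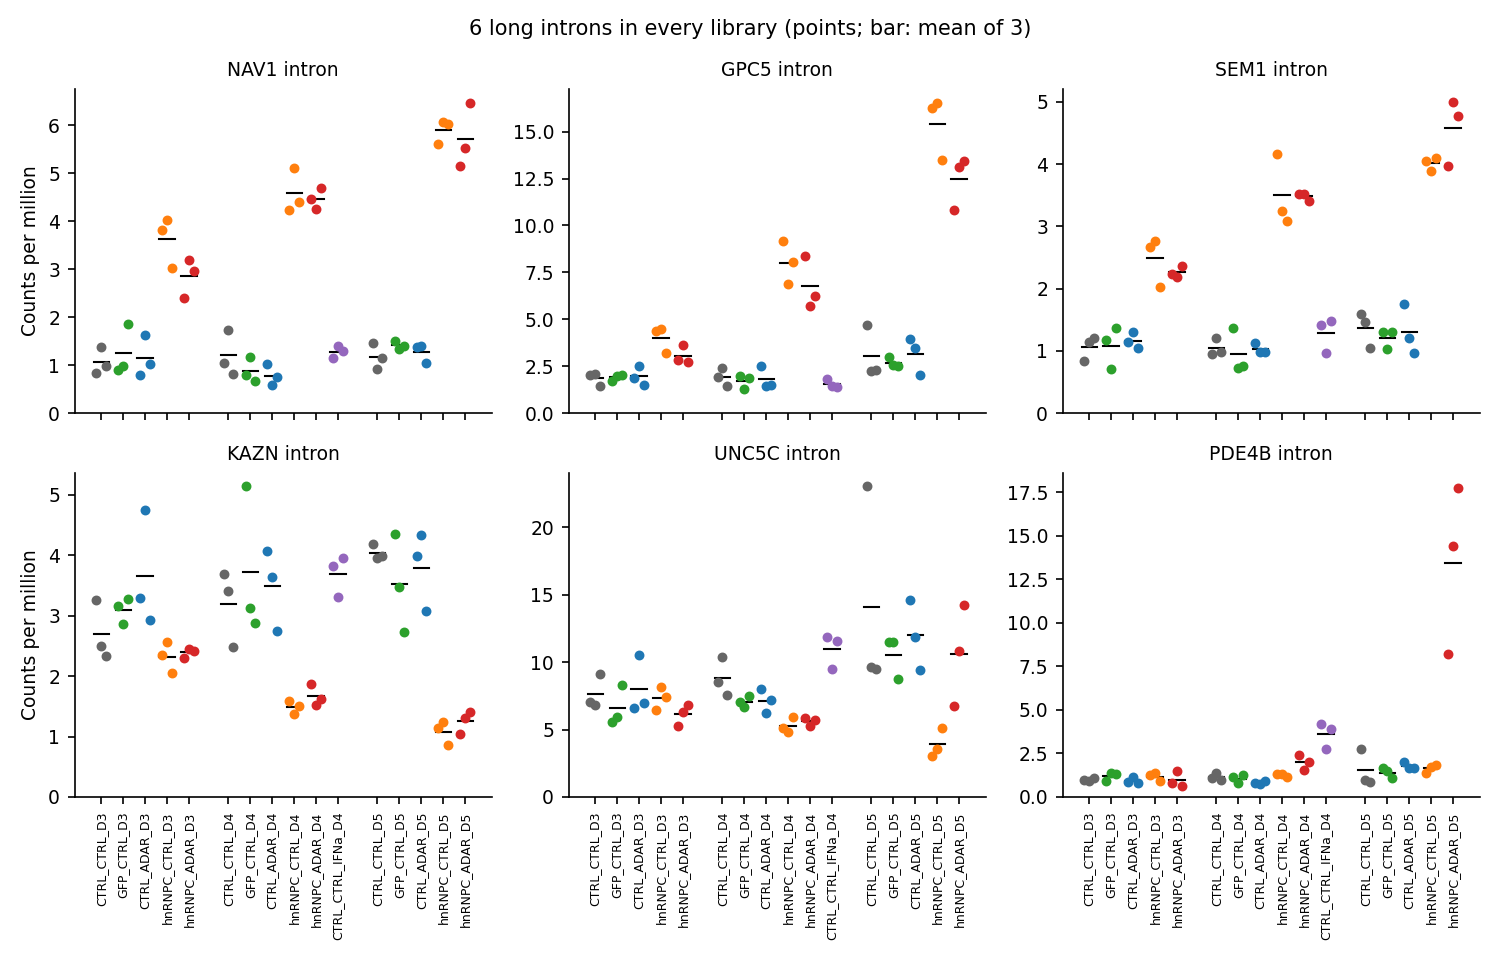
CPM (vertical axes, from 0) of 6 long introns, 1 point per library with a line at the mean of 3, by group along the horizontal axis. NAV1, GPC5 intron 2 and SEM1 were higher and KAZN and UNC5C lower in hnRNPC-targeted cells on day 5, and PDE4B intron 1 reached 8.21 to 17.7 CPM in ADAR+hnRNPC-targeted cells on day 5.

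ADAR targeting alone gave no call among the long introns. In edgeR, 0 of 1312 were called on days 3, 4 and 5, with 11, 101 and 29 at an unadjusted p under 0.05. Over all tested introns 0% were called. limma-voom and DESeq2 each gave 0 calls too. GFP-targeted cells gave 0 calls on each day, with 20, 58 and 75 introns at an unadjusted p under 0.05 and 0 calls by either of the other tools. The share of all introns called in GFP-targeted cells on day 5 was 0.00459% higher and 0% lower.

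In ADAR+hnRNPC-targeted cells, more long introns rose than fell on each day. On day 3, 7 were higher and 1, intron 5 of FHIT, was lower, where 1.68% and 0.161% of all tested introns were called. On day 4, 34 were higher and 6 lower, with 3.57% and 0.711%. On day 5, 86 were higher and 40 lower, with 5.49% and 8.03%. The median log2 difference on day 5 was 0.05, against -0.28 over all tested introns. Once replicate 1 of CTRL was left out, 166 were higher and 21 lower, with a median of 0.38 against -0.17. Without replicate 3 of CTRL, 72 were higher and 74 lower, so that the order of both directions rested on the controls. With intron totals as the library size, 137 were higher and 19 lower, with 8.02% and 3.28% of all introns, whose median was -0.04. GFP-targeted cells as the control gave 110 higher and 21 lower on day 5, with 5.61% and 8.17%. On day 4 this control gave 72 and 5, with 4.26% and 0.606%. Where all 2489 were tested, 403 were higher and 101 lower on day 5, with 6.62% and 8.58% of all introns in that fit.

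The comparison with ADAR-targeted cells uses none of the CTRL libraries. On day 5, 96 long introns were higher and 22 lower in ADAR+hnRNPC-targeted than in ADAR-targeted cells, where 5.51% and 5.96% of all introns were called. On day 4, 81 were higher and 5 lower, with 4.74% and 0.505%. Those lower were in KAZN, PLXNA4, CYTH3, STEAP1B and an interval without a host. Without replicate 1 of ADAR-targeted cells on day 4, 177 were called, and without replicate 1 of ADAR+hnRNPC-targeted cells, 54. On day 3, 6 were higher and 2 lower, with 1.60% and 0.165%, and those lower were in STK32C and PARVB. CYTH3, STEAP1B, STK32C and PARVB were named after their values were seen.

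The introns that rose most in ADAR+hnRNPC-targeted cells on day 5, other than the MMP2 interval, were in MAML2, EXT1, PDE4B and ATP10A. Intron 1 of MAML2, a coactivator of Notch signalling, spans 247.865 kb (chr11:95826682-96074546). CTRL had 3.38, 1.33 and 2.63 CPM, hnRNPC-targeted cells 4.05, 3.77 and 4.34 CPM and ADAR+hnRNPC-targeted cells 18.5, 27.5 and 31.5 CPM. Only the last group stood far from the rest, with a log2 difference to CTRL of 3.40 ± 0.32 (edgeR, adjusted p = 3.48e-11). Intron 1 of EXT1, an enzyme that builds heparan sulfate chains, had 4.95, 2.44 and 2.02 CPM in CTRL, 1.34, 1.61 and 1.65 CPM in hnRNPC-targeted cells and 19.2, 28.5 and 49.3 CPM in ADAR+hnRNPC-targeted cells. This intron was thus lowest with the hnRNPC gRNA alone and highest with both. The log2 difference was -1.03 in hnRNPC-targeted cells, which was -0.54 and no longer called without replicate 1 of CTRL, and 3.37 ± 0.31 in ADAR+hnRNPC-targeted cells (edgeR, adjusted p = 1.41e-11).

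IFN-α changed few long introns, and those it raised were also high in ADAR+hnRNPC-targeted cells on day 5. On day 4, 5 long introns were higher and 2 lower in IFN-α-treated than in untreated CTRL cells, where 0.821% and 0.0229% of all tested introns were called. The number called ranged from 11 without replicate 2 of the IFN-α group to 4 without replicate 3. Both long introns of PDE4B, a phosphodiesterase that degrades cAMP, were among the 5. The one at chr1:66458826-66713142 had 1.10, 1.36 and 0.955 CPM in untreated and 4.21, 2.78 and 3.91 CPM in treated cells. The groups did not overlap, and the log2 difference was 1.67 ± 0.31 (edgeR, adjusted p = 0.000487). The other, at chr1:66258197-66458104, differed by 2.02 ± 0.27 (adjusted p = 1.49e-06). In ADAR+hnRNPC-targeted cells on day 5 these introns differed from CTRL by 3.15 and 3.03, and in hnRNPC-targeted cells by 0.12 and 0.19, which was not called.

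Intron 1 of ATP10A, a lipid flippase, had 2.13, 2.53 and 1.66 CPM in untreated and 7.51, 5.81 and 5.37 CPM in IFN-α-treated cells. It had 11.4, 18.3 and 21.5 CPM in ADAR+hnRNPC-targeted cells on day 5, so that all these libraries lay above all CTRL libraries of day 5 at 3.73, 2.09 and 2.08 CPM. The log2 difference with IFN-α was 1.56 ± 0.26 for ATP10A, 1.15 ± 0.21 for SPATS2L and 1.04 ± 0.23 for RAB8B, a small GTPase of vesicle transport (edgeR, adjusted p = 5.73e-05, 0.000382 and 0.00517). RAB8B was no longer called at 0.88 without replicate 3 of untreated CTRL on day 4, at 0.97 without replicate 1 of the IFN-α group and at 0.80 without replicate 3 of it. In ADAR+hnRNPC-targeted cells on day 5 the same introns differed by 2.70, 2.40 and 2.53. The 2 introns that were lower with IFN-α were in MEGF6 and in CD247, the gene of the T cell receptor zeta chain, and were named after their values were seen. None of the 28 interferon-inducible genes listed for this work hosted a long intron.

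Whether the response to the hnRNPC gRNA differed with the ADAR gRNA was tested as an interaction, called at an adjusted p of at most 0.05 alone. On day 3, edgeR called 0 of 1312 long introns, with 42 at an unadjusted p under 0.05 and 0 calls by limma-voom or DESeq2, where 0% of all introns were called. On day 4, 1 was called, an intron of TBC1D16 with a log2 difference of 1.11, where 0.133% and 0.0963% of all introns were higher and lower. This call was lost, with 0 called, when any library of the 4 groups was left out other than replicate 3 of CTRL, which gave 2, and replicate 1 of ADAR-targeted cells, which gave 3. On day 5, 92 were higher and 8 lower, with 4.42% and 9.0%, and the median was 0.33, against -0.14. Leaving out replicate 1 of CTRL left 42 higher and 11 lower, with a median of -0.02, and 64 were called without replicate 1 of hnRNPC-targeted cells, 64 without replicate 3 of ADAR-targeted cells and 56 without replicate 3 of ADAR+hnRNPC-targeted cells. The difference was 4.41 ± 0.42 for EXT1, 2.98 for ATP10A, 2.80 and 2.81 for the introns of PDE4B and 1.65 for MAML2.

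The hnRNPC response also changed from day 3 to day 5. The change was higher on day 5 for 22 long introns and lower for 66, where 3.46% and 6.96% of all introns were called, and the median was -0.26, against -0.22. Without replicate 1 of CTRL on day 5, 31 were higher and 33 lower. The number called was 48 without replicate 1 of hnRNPC-targeted cells on day 5, 54 without replicate 1 and 56 without replicate 2 of that group on day 3, and 54 without replicate 3 of CTRL on day 3. With intron totals as the library size, which set the median of all introns at -0.02, 106 were higher and 63 lower. In that fit 10.8% and 5.73% of all introns were called.

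Few long introns differed between days in CTRL cells. From day 3 to day 4, 0 were higher and 2 lower, both in SLC8A1, which encodes a sodium-calcium exchanger, where 0.0275% and 0.0229% of all introns were called. At an unadjusted p under 0.05 edgeR gave 17 with a positive difference, while neither limma-voom nor DESeq2 called any higher. With 1 library left out, 0 or 1 was called, and with the 2 groups alone in the fit 0. From day 3 to day 5, 4 were higher and 2 lower, with 0.239% and 0.0734%. The higher ones were 2 introns of TMEM135 and introns of GAB2 and CACNB4, and the lower ones 2 introns of SLC8A1. TMEM135 was named by the rule for comparison with host genes and the others after their values were seen. When replicate 1 of CTRL on day 5 was left out, 0 were higher and 5 lower. A total of 19 were called without replicate 3 and 11 without replicate 2 of CTRL on day 5, and 3 without replicate 2 or replicate 3 on day 3.

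Host genes were counted over their exons, so that the change of an intron could be compared with that of its mRNA. A host gene that passed the gene filter was found for 1138 of the tested long introns, in 815 genes. Across these pairs the log2 differences of intron and gene in hnRNPC-targeted cells had a Spearman correlation of 0.42, 0.48 and 0.59 on days 3, 4 and 5. This is a description across introns that share libraries, size factors and, in part, genes and reads. On day 5, 21 introns with a tested host were higher, of which 7 had a host that was higher and 0 a host that was lower. Of 50 that were lower, 14 had a host that was lower and 0 a host that was higher. Among the 1194 host genes tested, 1 was higher and 3 were lower on day 3, where 0.553% and 0.485% of all 13193 tested genes were called. On day 4, 9 were higher and 19 lower, with 1.59% and 1.63%. On day 5, 27 were higher and 54 lower, where 3.98% and 3.74% of all genes were called. In ADAR+hnRNPC-targeted cells on day 5, 109 host genes were higher and 49 lower, with 9.41% and 6.22% of all genes. With each library left out in turn, these day 5 counts stayed between 24 and 31 higher and 50 and 58 lower, and between 109 and 117 higher and 45 and 54 lower. The interaction on day 5 was positive in 405 and negative in 109 host genes, whereas 23.9% and 23.7% of all genes were called in the 2 directions.

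**Figure D3:**
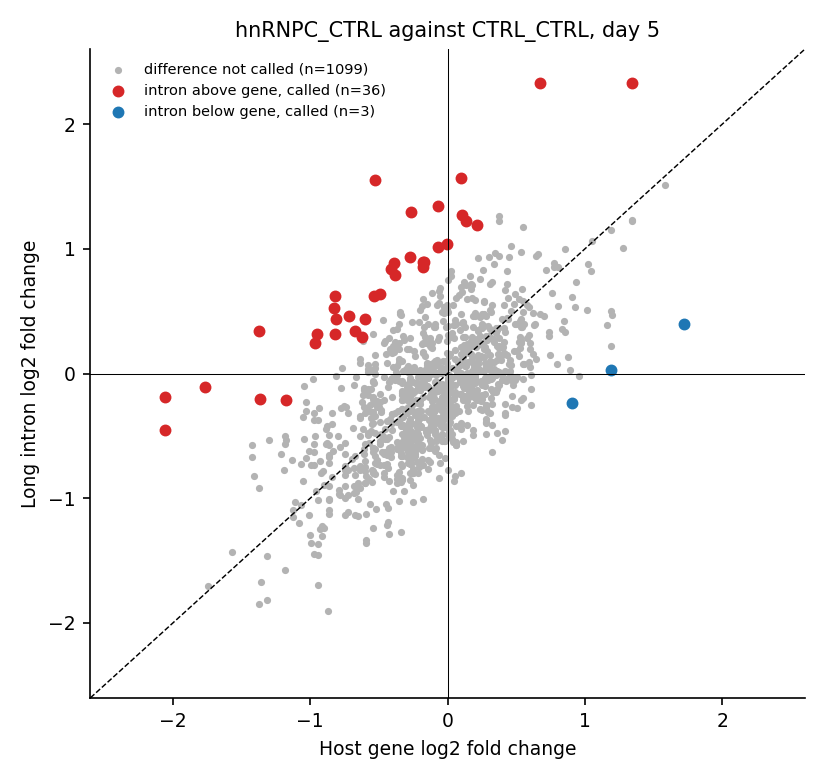
Log2 difference between hnRNPC-targeted and CTRL cells on day 5 of 1138 long introns (vertical axis) against that of their host gene (horizontal axis), 1 point per intron. The points rise together with a Spearman correlation of 0.59, and the introns called different from their host lie off the diagonal, 36 above and 3 below.

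In a direct test against the host with all libraries, long introns of hnRNPC-targeted cells exceeded it less often than introns over all pairs. The intron exceeded the host in 15, 30 and 36 of 1138 pairs, or 1.32%, 2.64% and 3.16%, on days 3, 4 and 5. Of all 20008 pairs, 3.53%, 4.62% and 5.14% were called. The host exceeded the intron in 0, 0 and 3 pairs, with 0.0350%, 0.170% and 0.510%. The median of intron minus gene was 0.12, 0.07 and -0.02, against 0.16, 0.10 and 0.03 over all pairs. A total of 12 introns exceeded their host on all 3 days and 46 on any day. On day 5, 26 of the 36 contained exons of another gene, and 22 contained host exons. With the 452 pairs that held no exon of another gene, 6, 10 and 10 were called on the 3 days. If replicate 1 of CTRL on day 5 was omitted, 82 exceeded and 3 fell short. For these fits the share over all pairs is not given. The comparison with all pairs thus rests on the fit with all libraries. On day 3, 34 were called without replicate 3 of hnRNPC-targeted cells and 6 without replicate 3 of CTRL, and on day 4, 17 without replicate 1 of hnRNPC-targeted cells or replicate 3 of CTRL.

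The named excesses were of 2 kinds. In the first, the intron rose while the mRNA rose by less or was not called. NAV1 mRNA differed by 0.67 ± 0.15 on day 5 without overlap of the groups, from 5.63, 4.89 and 5.16 to 8.33, 7.12 and 9.56 CPM, so that intron 7 exceeded it by 1.68 ± 0.17 (edgeR, adjusted p = 1.33e-06). ITFG1 mRNA differed by 0.10 ± 0.07, and its intron 6 exceeded it by 1.47 ± 0.13. SEM1 mRNA differed by -0.53 ± 0.09, which is under the size for a call, and its intron exceeded it by 2.10 ± 0.20. For DLG5, in contrast, gene and intron rose alike, by 1.58 ± 0.08 and 1.51 ± 0.19.

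In the second kind, the mRNA fell and the intron did not fall to the same extent. TMEM135, a membrane protein linked to peroxisomes, had 54.7, 59.1 and 58.4 CPM of gene counts in CTRL and 13.1, 13.2 and 15.1 CPM in hnRNPC-targeted cells on day 5. Its introns 4 and 5 differed by -0.19 ± 0.29 and -0.45 ± 0.26 and exceeded the gene by 1.97 ± 0.29 and 1.72 ± 0.28. The gene of MFSD1, a lysosomal membrane transporter, fell from 598, 637 and 607 CPM to 180, 187 and 174 CPM, and its intron exceeded it by 1.67 ± 0.20. DIAPH3, a formin that nucleates actin filaments, fell by 1.37 ± 0.08 on the log2 scale in gene counts, and its intron 4 exceeded it by 1.78 ± 0.26. The groups of gene counts did not overlap in TMEM135 or MFSD1.

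In 3 pairs the gene rose more than the intron. HRH1, the histamine H1 receptor, went from 7.16, 7.12 and 6.64 to 23.9, 23.4 and 21.8 CPM in gene counts, while its intron went from 31.9, 32.8 and 33.8 to 41.8, 44.1 and 43.95 CPM. The gene counts of the groups lay far apart and the intron moved by less than the size for a call, a difference of -1.32 ± 0.12 (edgeR, adjusted p = 2.64e-07). For intron 11 of the potassium channel gene KCNQ1 the difference was -1.14 ± 0.21, and this intron contains KCNQ1OT1, a long noncoding RNA transcribed from the opposite strand. For intron 1 of SLC35F1 it was -1.14 ± 0.20, and this pair was no longer called without replicate 1 of CTRL.

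In ADAR+hnRNPC-targeted cells, introns exceeded their host in 6, 34 and 47 pairs and fell short in 1, 3 and 21 on days 3, 4 and 5. Of all pairs, 2.34%, 4.01% and 4.57% were called with the intron above the host and 0.0700%, 0.380% and 4.57% with the intron below it. On omitting replicate 1 of CTRL on day 5, 128 exceeded and 12 fell short, and the share over all pairs in that fit is not given. MAML2 gene counts went from 0.359, 0.404 and 0.8501 to 10.1, 14.8 and 16.05 CPM, a log2 difference of 4.65 ± 0.37, and intron 1 fell short of this, with an intron minus gene difference of -1.23 ± 0.28. The PDE4B introns exceeded the gene, which differed by 1.93 ± 0.14, by 1.14 ± 0.25 and 1.32 ± 0.29. ADAR-targeted cells gave 0 called pairs on each day in edgeR, with 5, 40 and 16 at an unadjusted p under 0.05. GFP-targeted cells also gave 0, with 14, 20 and 16. Since the comparisons of hnRNPC-targeted and ADAR+hnRNPC-targeted cells share the CTRL libraries, their values stand side by side only.

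Introns of the same gene in most cases differed less from each other than the long introns as a whole, with all CTRL libraries included. In 200 genes with more than 1 tested long intron, 525 introns in all, the median SD of the log2 differences within a gene on day 5 was 0.15. The 90th percentile of this SD was 0.43. The SD over all tested long introns was 0.53. These measures are unlike, as each SD within a gene rests on few introns. The introns had 1 sign in 150 of these genes and both signs in 50 on day 5, and both signs in 77 on day 4. The 7 tested introns of LPP, which encodes a focal adhesion protein, ranged from -0.37 to -0.10, and the 8 of DPYD from -0.78 to -0.19. None of these 15 was called in this comparison. The 6 tested of RABGAP1L ranged from -0.77 to 0.11 and the 3 tested of ZBTB20 from -0.46 to -0.32. The signs of these small differences turned with replicate 1 of CTRL, and without it the ranges were 0.11 to 0.37 in LPP, -0.34 to 0.33 in DPYD, -0.58 to 0.54 in RABGAP1L and 0.11 to 0.20 in ZBTB20. In ADAR+hnRNPC-targeted cells, the 3 introns of SLC8A1 were between 1.39 and 1.55 and the 5 of MCTP1 between 0.59 and 1.02, or 1.25 to 1.93 and 0.96 to 1.43 without that library, genes that were chosen after their values were seen.

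Among genes with at least 3 tested long introns, ITFG1 had the widest range on day 5. Its intron 6 differed by 1.57 ± 0.16 on day 5 while introns 8, 10 and 14 differed by -0.44, -0.40 and -0.80. Without replicate 1 of CTRL the 4 values were 1.66, 0.04, -0.05 and -0.34. The rise was thus called in 1 of 4 long introns of a gene whose mRNA differed by 0.10. RSRC1, which encodes a splicing-related protein, had the same pattern in intron 5, which differed by 1.53, 1.43 and 0.94 ± 0.19 on days 3, 4 and 5, whereas introns 3, 4, 6 and 7 differed by -0.05, -0.36, -0.60 and -0.63 on day 5. Leaving out the same library gave 1.32 for intron 5 and 0.41, 0.18, 0.06 and -0.16 for the others. In the autophagy gene ATG10, introns 2, 3 and 5 differed by -1.01, -0.19 and 0.60, or by -0.93, 0.35 and 0.99 without it. RSRC1, ATG10 and the other introns of ITFG1 were chosen for their range after the values were seen, so the ranges are a description.

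The share of introns that fell on day 5 was highest among the widest. Of 96 tested introns above 200 kb, 19 or 19.8% were lower, against 7.44% of 336 between 100 and 200 kb, 2.88% of 382 between 70 and 100 kb and 2.41% of 498 between 50 and 70 kb. The median log2 difference went from -0.07 in the narrowest to -0.48 in the widest class. Without replicate 1 of CTRL, 5 introns above 200 kb were lower and 5 higher, and the median was -0.12, against 0.24 in the narrowest class. Against GFP-targeted cells, 7 were lower and the median was -0.22. In replicate 1 of CTRL on day 5 itself, introns above 200 kb took 3075 CPM, where no other library exceeded 2019. The order of the class medians was the same without it and against GFP-targeted cells. From the narrowest to the widest class, 4, 3, 10 and 5 of 498, 382, 336 and 96 introns were lower without it. Against GFP-targeted cells these counts were 6, 3, 12 and 7. The share called lower was thus highest in the widest class with each control, but did not rise between the 2 narrowest classes without it or against GFP-targeted cells.

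**Figure D4:**
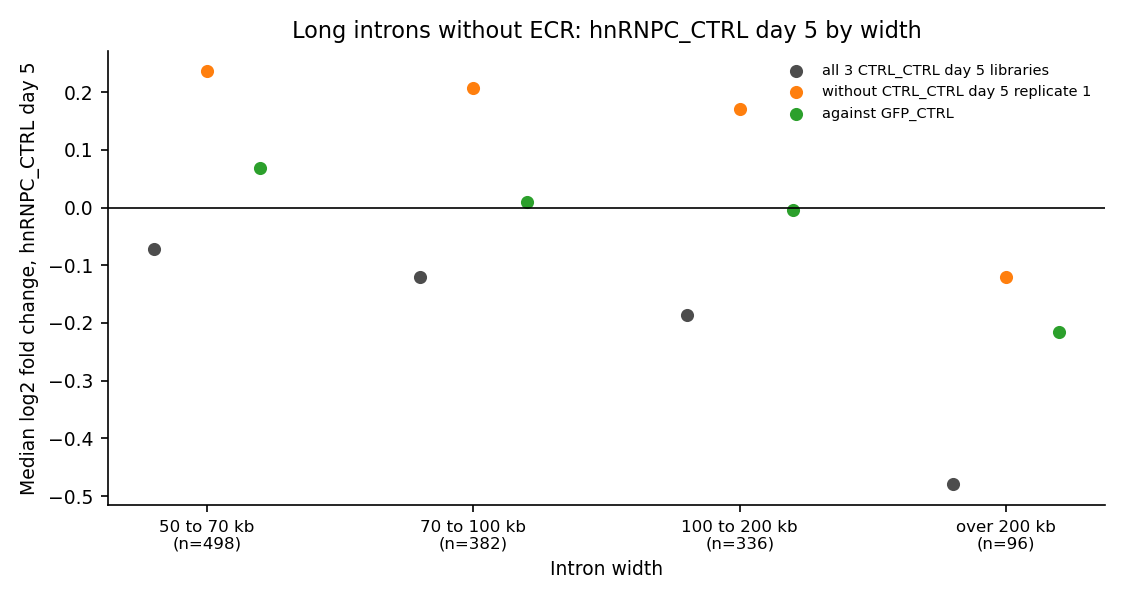
Median log2 difference between hnRNPC-targeted cells on day 5 and the control (vertical axis) for tested long introns in 4 classes of width (horizontal axis, n in each label), with all CTRL libraries, without replicate 1 of CTRL and with GFP-targeted cells as the control. The median is lowest above 200 kb with each control, at -0.48, -0.12 and -0.22.

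The 5 widest tested introns show both directions. An interval of 1551.72 kb without a host that overlaps LSAMP, a neural adhesion molecule, differed by -0.56 in hnRNPC-targeted cells on day 5. An intron of ROBO2, a receptor for SLIT ligands, spans 1133.19 kb and differed by -0.69, and the intron of the hematopoietic transcription factor gene RUNX1, 848.711 kb wide, by -0.31. None of these 3 was called. Intron 1 of the adhesion molecule gene CADM2 fell by 1.46 ± 0.35, but differed by -0.74 and was not called without replicate 1 of CTRL, in which it had 8.21 CPM against 3.32 and 2.27. Intron 7 of GPC5, 721.292 kb wide, rose by 1.23 ± 0.23 with intron 2 of the same gene.

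The introns with the most reads per kilobase were those of ZEB2, HDAC9, PDE7A, PARP8 and KCNN2. Intron 2 of ZEB2, a zinc finger transcription factor of the monocyte lineage, had 359, 184 and 162 CPM in CTRL on day 5 and 151, 167 and 149 CPM in hnRNPC-targeted cells. It differed by -0.60 ± 0.21, or -0.15 without replicate 1 of CTRL. Intron 12 of HDAC9, a histone deacetylase, was evenly covered at 92.4, 93.2 and 89.4 CPM in CTRL and 68.3, 70.6 and 61.1 CPM in hnRNPC-targeted cells. Here the groups were separate at a log2 difference of -0.46 ± 0.07, which is below the size for a call. PDE7A differed by -0.61, PARP8 by -0.77 ± 0.23 and KCNN2 by -0.22.

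Runs of T showed a weak relation with the response. Across 1200 tested long introns with 1 host, the log2 difference in hnRNPC-targeted cells had a Spearman correlation of 0.26, 0.30 and 0.28 with the number of T runs per 10 kb on days 3, 4 and 5, and 0.26 on day 5 without replicate 1 of CTRL. Over 20225 introns of any width, it was 0.34, 0.25 and 0.07. The correlation with GC content was -0.20, -0.01 and 0.36 in the long introns on days 3, 4 and 5, with 0.18 on day 5 without replicate 1 of CTRL, and -0.33, -0.13 and 0.36 over introns of any width. With width it was -0.03, -0.07 and -0.17, and -0.10 on day 5 without that library. These are descriptions across introns that share libraries and base composition.

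The lists of host genes showed no group in which most introns were called. Fragile site genes, which are among the longest human genes, hosted 69 of the long introns in 15 genes, and 32 were tested. In hnRNPC-targeted cells on day 5, edgeR called 0 higher and 10 lower, with 0 positive at an unadjusted p under 0.05, and limma-voom called 7 lower and DESeq2 10. Of all tested long introns 2.36% were higher and 5.11% lower, and of all tested introns 4.00% and 2.35%. The median was -0.60, against -0.13 over the tested long introns and -0.06 over all tested introns. Width was not matched in these comparisons. Besides FHIT and MACROD2, introns that were lower were in NAALADL2, PDE4D, RAD51B, 2 in THSD7A and 2 in IMMP2L, with log2 differences down to -1.34. Omitting replicate 1 of CTRL, 3 were lower and the median was -0.10. In that fit 22 of 1312 tested long introns were lower, with a median of 0.19. Of the fragile site introns named here, FHIT, MACROD2 and RAD51B were those still called lower, at -1.16, -1.25 and -1.20. An intron of CTNNA3 was the only higher one of this list in ADAR+hnRNPC-targeted cells on day 5, at 1.07, with 3 lower. In that comparison 6.55% of the tested long introns were higher and 3.05% lower, and 5.49% and 8.03% of all tested introns.

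Among 48 tested introns of transcription factor and chromatin genes, 1 was higher and 1 lower in hnRNPC-targeted cells on day 5, where 4.00% and 2.35% of all tested introns were called, with a median of -0.23. Without replicate 1 of CTRL, 2 were higher and 1 lower and the median was 0.18. The intron of FOXO1, a forkhead factor of insulin signalling, was higher by 1.06 ± 0.24, as was its gene by 1.05 ± 0.14. The intron of RUNX2, a factor of bone development, fell by 1.57 ± 0.30, with its gene at -1.18 ± 0.10. Of 30 introns of kinases, phosphatases and phosphodiesterases, 0 were higher by edgeR, limma-voom or DESeq2 and 1, in PDE4D, was lower, with a median of -0.10, or 0.22 and 0 called without replicate 1 of CTRL. In edgeR, 10 of these had an unadjusted p under 0.05. Of 12 introns of RNA-binding protein genes, 0 were called by any of the 3 tools, 5 had an unadjusted p under 0.05 in edgeR, and the median was -0.13, or 0.31 without replicate 1 of CTRL.

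Editing outside ECRs was read from 5966 candidate sites in 292 of the long introns, of 475962 sites in all. The share of reads with G at these sites in CTRL was 3.15% ± 0.233, 3.00% ± 0.0684 and 3.16% ± 0.196 (SD, n = 3) on days 3, 4 and 5. ADAR-targeted cells had 1.68% ± 0.137, 1.79% ± 0.0642 and 1.72% ± 0.141, and ADAR+hnRNPC-targeted cells 1.80%, 1.82% and 2.11%. All libraries with the ADAR gRNA lay below all CTRL libraries, and each day gave a 2-sided exact permutation p of 0.1, the smallest that 3 against 3 can give. hnRNPC-targeted cells had 3.23%, 3.51% and 3.80%, above CTRL without overlap on days 4 and 5 (exact permutation p = 0.1 each) and with overlap on day 3 (p = 0.7). IFN-α-treated cells had 4.07% ± 0.274, also above CTRL (p = 0.1), and GFP-targeted cells 2.94%, 2.94% and 2.92% (exact permutation p = 0.3, 0.4 and 0.2). Over all candidate sites the share on day 4 was 4.74% in CTRL and 8.23% with IFN-α. It was 5.27% in hnRNPC-targeted, 2.05% in ADAR-targeted and 2.38% in ADAR+hnRNPC-targeted cells. The direction of these differences was thus not particular to the long introns.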

How the data were processed

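Total RNA libraries (TruSeq Stranded Total RNA with Ribo-Zero Gold) were deposited by the authors as raw read counts per intron, gene and editing site. Per the study's methods and the submitters' processing notes, reads were aligned to GRCh37 with STAR 2.5.4a and uniquely mapped pairs were counted with featureCounts. Genes were taken from GENCODE, and introns are gene intervals outside merged exons of principal transcripts. An interval can therefore hold exons of other transcripts or genes, whose reads add to its count. For the editing sites, the authors deposited counts of reads with G and of all reads.

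Members and gene lists were chosen with earlier results of these data known. Hosts, intron ranks and sequence features were assigned with the GENCODE v44lift37 annotation and the GRCh37 genome. Counts were scaled to gene totals times TMM factors, as in the study's methods, and CPM are on this scale. Introns with a mean log2 CPM of at least 1 and genes with at least 0.5 were tested with edgeR 4.0.16 (quasi-likelihood, R 4.3.3) in 1 model of 16 groups, with Benjamini-Hochberg adjustment. Calls needed a log2 difference of at least 1 in size and an adjusted p of at most 0.05. Intron and host were compared in 1 model with a coefficient per library. limma 3.58.1 and DESeq2 1.42.0 served as alternatives, and the test was checked on simulated data. Shares of G reads were compared by 2-sided exact permutation tests. Columns of other samples left unused numbered 0, and replicate libraries differed by more than sampling noise.

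Introns were named by rule: the 8 largest rises and 8 largest falls in hnRNPC-targeted cells on day 5 among calls with 1 sign on all 3 days, the 5 with the most reads per kilobase, the 5 widest, the 5 largest changes with IFN-α, the 6 largest intron minus host differences in each direction (of the negative ones 3 existed), the 6 largest changes in ADAR+hnRNPC-targeted cells, introns of the genes with most members (7 genes because of ties), and the gene lists. Others are said to be named after their values were seen. Some genes and 1 gene list are not reported here.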

Additional observations from a re-analysis of the deposited data

Results flagged for a closer look

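These results stood out because an effect differed between groups by a test of the difference itself. The response to the hnRNPC gRNA differed with the ADAR gRNA in 1 long intron on day 4 and in 100 on day 5, and between days 5 and 3 in 88 (edgeR, adjusted p of at most 0.05). On day 5 the log2 difference between both responses was 4.41 for intron 1 of EXT1, 2.98 for ATP10A, 2.80 and 2.81 for the introns of PDE4B at chr1:66258197-66458104 and chr1:66458826-66713142, 1.67 for UNC5C, 1.65 for MAML2 and 1.53 for MACROD2. Replicate 1 of CTRL on day 5 enters each of the day 5 values, and without it 53 long introns were called in the interaction.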

How the results depend on the processing

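Called counts kept their size, within 1.5 times, under 203 of 264 alternatives that left no library out and under 284 of 348 that left out 1 library, and no named intron that was called in either fit changed sign. Values of named introns below the thresholds changed sign in 10 and 19 cases. The cause of the shifts was not tested, except where an alternative tested other introns by its construction. With no filter on low counts, the calls in hnRNPC-targeted cells were 51, 127 and 324 on days 3, 4 and 5, in ADAR-targeted cells 1, 2 and 4, in ADAR+hnRNPC-targeted cells 35, 197 and 499 against CTRL and 32, 292 and 476 against ADAR-targeted cells, and in GFP-targeted cells 2 on day 3 and 1 on day 5. The interaction then gave 1, 9 and 218, IFN-α 35, CTRL over time 7 and 31, and the change of the hnRNPC response 163. With all 2489 tested, the calls were 42, 114 and 310 in hnRNPC-targeted cells, 30, 186 and 504 in ADAR+hnRNPC-targeted cells, 31, 279 and 481 against ADAR-targeted cells, 0 and 181 for the interaction on days 4 and 5, 24 for IFN-α and 15 for CTRL from day 3 to day 5. These added introns have few reads, where the depth limits the precision of each value.

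GFP-targeted cells as the control gave 19, 53 and 65 for the hnRNPC gRNA alone and 77 for both gRNAs on day 4. Intron totals as the library size gave 1 for ADAR-targeted cells on day 5, 277 for the interaction on day 5, 1 and 10 for CTRL over time and 169 for the change of the hnRNPC response. DESeq2 gave 5 for the interaction on day 4 and 10 for CTRL from day 3 to day 5, and size factors of DESeq2 or limma-voom gave 0 for the interaction on day 4. Of the host genes, limma-voom called 0 in GFP-targeted cells on day 5. Fits of the 2 groups alone gave 0 and 1 for CTRL from day 3 to days 4 and 5. Pairs with no exon of another gene inside gave 6, 10 and 10 in hnRNPC-targeted cells, 2, 11 and 20 in ADAR+hnRNPC-targeted cells and 1 with IFN-α.

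Replicate numbers were shared between groups. The deviations of same-numbered libraries of a day correlated at -0.34 to 0.70. Their median was 0.28, against -0.16 for libraries of a day with other numbers. For 40 of 48 libraries the mean correlation was highest with libraries of their own number on the same day. Because no label ties a number to an experiment, the main tests did not take the numbers as pairs. With the replicate number as a block, 1 intron was called in ADAR-targeted cells on day 5, 159 in the interaction on day 5 and 153 in the change of the hnRNPC response, and 128 host genes in the interaction on day 4. The block moved no other count of calls by more than 1.5 times.

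With each library left out in turn, the calls among long introns ranged from 8 to 19 and from 84 to 152 in hnRNPC-targeted cells on days 3 and 5, from 54 to 177 in ADAR+hnRNPC-targeted against ADAR-targeted cells on day 4, from 0 to 3 and from 53 to 150 for the interaction on days 4 and 5, from 4 to 11 with IFN-α, from 0 to 1 and from 3 to 19 in CTRL on days 4 and 5 against day 3, and from 48 to 130 for the change of the hnRNPC response. Host genes ranged from 3 to 6 in ADAR+hnRNPC-targeted against ADAR-targeted cells on day 3, from 26 to 91 for the interaction on day 4, from 0 to 4 in ADAR-targeted and in GFP-targeted cells on day 5 and from 3 to 7 in CTRL on day 5 against day 3. Pairs of intron and host ranged from 6 to 34, from 17 to 39 and from 34 to 85 in hnRNPC-targeted cells on the 3 days, and from 17 to 52 and from 60 to 140 in ADAR+hnRNPC-targeted cells on days 4 and 5.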
